A study of Mus musculus with 15 samples.

Results

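Smooth muscle contractile genes were read across NIH 3T3 fibroblasts that express 1 of 4 C/EBP transcription factors. The set held 9 genes, Acta2, Actg2, Tagln, Cnn1, Cnn2, Csrp1, Tpm1, Tpm2 and Tpm4. It took every probe set that the array's annotation maps to 1 of these symbols alone, which gave 11 of the 12422 probe sets that are not controls. A further probe set, 95543_at, was left out because it names both Tpm4 and Gm7809. RNA was measured on 15 Affymetrix MG_74Av2 oligonucleotide arrays, 3 for each of 5 groups. NIH 3T3 is an established mouse embryonic fibroblast line. Of the 5 groups, 4 carried a human cDNA (C/EBPα, C/EBPβ, C/EBPδ and C/EBPε, named here after it) and 1 the empty vector. In all groups the plasmid was driven by the zinc-inducible metallothionein promoter, the transfectants were polyclonal and selected with G418, and zinc sulphate was given for 16 h, so the vector cells were zinc-treated too. The labels speak of triplicate clones and do not say whether these came from separate transfections, so p-values measure only the spread between these cultures.

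Smooth muscle contracts when myosin pulls on filaments of smooth muscle actins, with calponins, transgelin and tropomyosins bound along the actin. Many of these genes are also expressed in activated and cultured fibroblasts, where they belong to stress fibres. Serum response factor drives many of them in mouse and human cells by binding a DNA element called the CArG box, and TGF-beta signalling raises several. In bulk RNA, fewer cells of a type and less RNA per cell cannot be told apart.

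Values are signals in scaled units, comparable between arrays for 1 probe set and not between probe sets. Scaled signals below 189.652 units, the pooled 20th percentile, were set to that floor before the log2 step. Tested were the 6963 probe sets with a signal over the pooled median, 1092.06 units, on 3 or more arrays. Of the 11 member probe sets 10 were tested, for 8 genes, and Cnn1 was not. Acta2 and Tagln passed through the groups in which they were high, since no C/EBPα array exceeded that signal for either, so counts over the tested members are given as description. Differences are log2 values with the standard error (SE), from limma fitted to all 15 arrays, with p-values adjusted over all 6963 probe sets and called below 0.05. Array medians before scaling ran from 992.25 to 1149.7 units. The 3' to 5' ratio of the actin control probe sets lay between 1.02 and 1.25 in C/EBPα cells and between 1.11 and 1.41 in vector cells, with the other groups between 1.05 and 1.44. For the Gapdh control it lay between 0.966 and 0.986 in C/EBPε cells, above every vector array (0.897 to 0.937). C/EBPα cells had 0.908 to 0.982, C/EBPβ cells 0.891 to 0.945 and C/EBPδ cells 0.903 to 0.931. The part of RNA quality in the results was not tested.

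Acta2 and Tagln, the actin and transgelin of the smooth muscle filament, were lower in C/EBPα and C/EBPε cells than in vector cells. Csrp1 fell in C/EBPα, C/EBPβ and C/EBPε cells, Acta2 in the same 3 groups, and Cnn2 and Tpm1 in C/EBPα cells. Actg2, Tpm2 and Tpm4 did not pass the test in any C/EBP group against vector. No member passed it in C/EBPδ cells. Called lower were 6 of the 10 tested member probe sets in C/EBPα cells, where 7.15% of all tested probe sets were lower. In C/EBPβ cells 3 were called lower against a background of 4.18%, and in C/EBPε cells 4 were called lower against 6.91%. Csrp1 counts with 2 probe sets, so by gene these were 5 of 8 in C/EBPα, 2 in C/EBPβ and 3 in C/EBPε cells. In C/EBPδ cells limma called 0 lower against a background of 0.00%, with 0 members and 443 of all probe sets at an unadjusted p below 0.05. None was called higher in any of the 4. Over all 6963 tested probe sets limma called higher 499 in C/EBPα, 357 in C/EBPβ, 25 in C/EBPδ and 653 in C/EBPε cells. The 4 comparisons share the same 3 vector arrays.

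**Figure D1:**
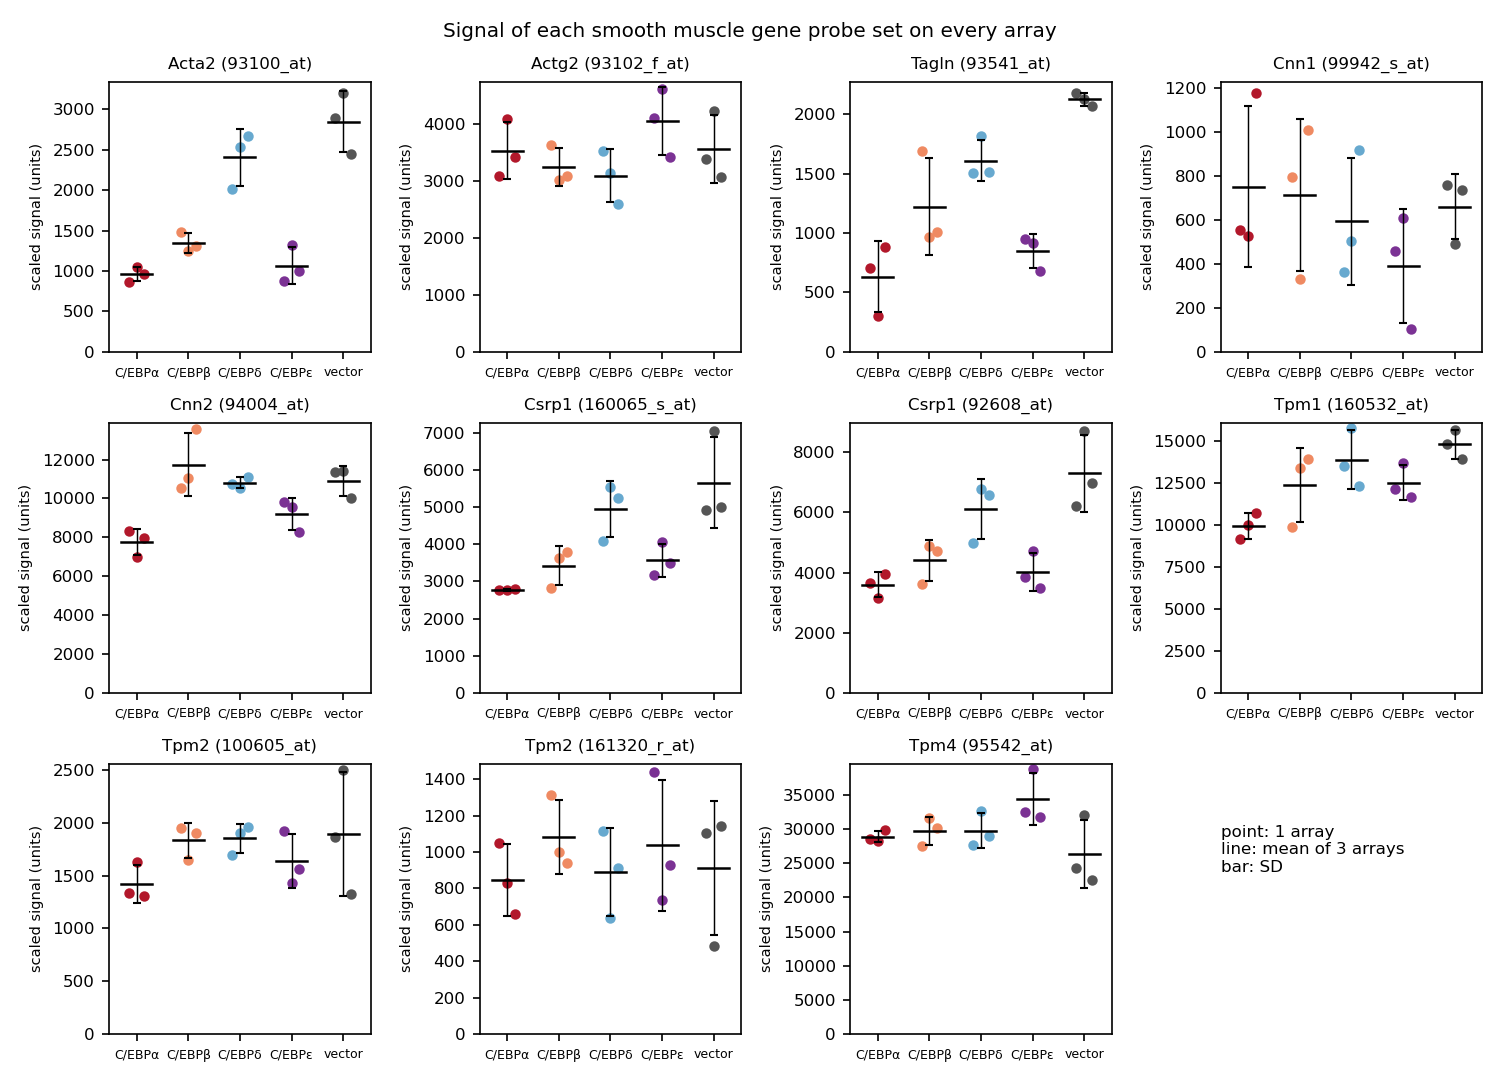
Scaled signal of each member probe set on every array, by group from C/EBPα to vector. Each point is 1 array, the line is the mean of 3 arrays and the bar its SD. For Acta2 all 3 arrays of the C/EBPα, C/EBPβ and C/EBPε groups lie below all 3 vector arrays.

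Acta2 encodes smooth muscle alpha-actin, the main actin of vascular smooth muscle and the usual marker of myofibroblasts. The gene lies on the minus strand of chromosome 19 (34240336 to 34255585, GRCm38.p6), and 1 probe set reads it, 93100_at. Its promoter, from 250 bases before to 50 after the start in the RefSeq table for GRCm38.p6, is shown because it holds matches to the element named above. The window is chr19:34255324-34255623 on the minus strand, and capitals mark the 2 sites that match the CArG box with 1 C or G allowed in its middle.
Acta2: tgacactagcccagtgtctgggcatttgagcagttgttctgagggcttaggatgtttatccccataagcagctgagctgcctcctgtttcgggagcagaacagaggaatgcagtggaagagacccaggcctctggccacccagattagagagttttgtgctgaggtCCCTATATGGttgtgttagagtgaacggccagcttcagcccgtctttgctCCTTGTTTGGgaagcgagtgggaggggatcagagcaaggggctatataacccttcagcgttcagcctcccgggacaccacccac
These sites begin 84 and 34 bases before the start. The exact CArG box is in 1.63% of the 32851 promoters of the table and the relaxed form in 9.98%, on either strand. The table gave 8 promoters for 7 member genes, and those of Tagln and Actg2 were not analysed here. Among these 8, the exact box is in 1 (Cnn2) and the relaxed form in 2 (Acta2 and Cnn2). The motif CATTCC, to which TEAD factors bind, was searched on both strands and is in 14.7% of all promoters and in 2 of these 8, at 146 bases before the start of Acta2 and 56 before that of Tpm1. The letters TATAAA are in 13.6% of all and in 0 of the 8. A match is a run of letters in this window, and none of these counts was tested.

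Acta2 had scaled signals of 870.8, 1045.6 and 964.1 units in C/EBPα cells, against 2892.3, 3201.0 and 2448.0 units in vector cells. C/EBPβ cells had 1485.1, 1248.3 and 1304.4 units, and in C/EBPε cells they were 882.6, 1317.0 and 1001.9 units. All 3 of these groups lie below vector on every array. C/EBPδ cells had 2009.3, 2536.5 and 2675.8 units, which overlap the vector arrays. The difference from vector was -1.56 in C/EBPα cells (SE 0.19, 95% interval -1.97 to -1.16, adjusted p 2.52e-05), a 2.96-fold lower level. It was -1.43 in C/EBPε cells (SE 0.19, adjusted p 7.28e-05) and -1.08 in C/EBPβ cells (SE 0.19, adjusted p 0.00169). These 3 calls held in every alternative run. For C/EBPδ cells it was -0.24 (interval -0.65 to 0.16, adjusted p 0.954), so a reduction of the size seen in C/EBPα cells lies outside the interval. The mean level in C/EBPα cells was 33.7% of that in vector cells, in C/EBPβ cells 47.3%, in C/EBPδ cells 84.5% and in C/EBPε cells 37.5%.

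The order of the Acta2 means ran from C/EBPα through C/EBPε, C/EBPβ and C/EBPδ to vector. C/EBPε and C/EBPα did not differ beyond their spread (0.14, interval -0.27 to 0.54, adjusted p 0.899). C/EBPδ was higher than C/EBPα by 1.32 (adjusted p 2.45e-04) and C/EBPε was lower than C/EBPδ by 1.18 (-1.18, adjusted p 6.89e-04). C/EBPδ was higher than C/EBPβ by 0.83 (adjusted p 0.0179). This last call was lost without C/EBPβ replicate 2 (adjusted p 0.0766), C/EBPβ replicate 3 (0.0652), C/EBPδ replicate 2 (0.0795) or C/EBPδ replicate 3 (0.0918).

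Tagln encodes transgelin, also called SM22 alpha, an actin-binding protein of smooth muscle and an early marker of that lineage. It is read by probe set 93541_at (chromosome 9, 45929628 to 45936058, GRCm38.p6). Signals were 706.7, 304.0 and 886.6 units in C/EBPα cells, against 2179.5, 2126.5 and 2067.1 units in vector cells. In C/EBPε cells they were 946.3, 918.6 and 682.5 units. Neither group overlaps vector, and the vector arrays lie close together. The C/EBPα arrays spread widely, since replicate 2 lies far under the other two. Tagln was lower in C/EBPα cells by 1.88 (-1.88, SE 0.33, adjusted p 7.94e-04, 3.69-fold). It was lower in C/EBPε cells by 1.34 (-1.34, SE 0.33, adjusted p 0.0108, 2.53-fold). Without the 5 arrays numbered 1, the adjusted p for C/EBPε was 0.0584.

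Tagln in C/EBPβ cells had 1689.4, 962.4 and 1010.4 units, and in C/EBPδ cells 1506.8, 1812.2 and 1510.3 units. All of these arrays lie below the 3 vector arrays, but neither difference passed the test over all probe sets. It was -0.85 in C/EBPβ cells (interval -1.55 to -0.15, adjusted p 0.131) and -0.41 in C/EBPδ cells (interval -1.11 to 0.30, adjusted p 0.962). The C/EBPβ difference passed without C/EBPα replicate 2 (adjusted p 0.0364), with a floor at the 40th percentile (0.0232) and with array weights (0.0166). Member probe sets whose arrays were all below vector numbered 6 in C/EBPα cells (13.7% of all tested probe sets were so), 5 in C/EBPβ cells (11.7%), 1 in C/EBPδ cells (4.77%) and 6 in C/EBPε cells (11.8%). Tagln was higher in C/EBPδ than in C/EBPα cells by 1.48 (adjusted p 0.00894), and 0.93 lower in C/EBPε than in C/EBPδ cells (-0.93, adjusted p 0.0979).

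Csrp1 encodes a cysteine-rich LIM protein that binds alpha-actinin and zyxin on actin filaments and is abundant in smooth muscle. It lies on chromosome 1 (135720063 to 135752229, GRCm38.p6). The promoter at chr1:135719813-135720112, plus strand, is shown because, of the 8 member promoters searched, it alone has a match to TTGCNNAA, a form of the sequence that C/EBP factors bind. Capitals mark that match, which reads on the reverse strand and begins 197 bases before the start.
Csrp1: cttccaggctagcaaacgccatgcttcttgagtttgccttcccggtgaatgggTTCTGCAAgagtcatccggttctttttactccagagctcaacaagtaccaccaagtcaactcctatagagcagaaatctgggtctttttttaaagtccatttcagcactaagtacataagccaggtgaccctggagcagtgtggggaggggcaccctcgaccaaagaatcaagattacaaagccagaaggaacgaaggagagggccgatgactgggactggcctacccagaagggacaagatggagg
The pattern was searched on both strands and is in 10.8% of all promoters of this length and in 1 of the 8 of the members.

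Csrp1 is read by 2 probe sets that gave nearly the same pattern. On 160065_s_at, signals were 2755.5, 2761.2 and 2801.6 units in C/EBPα cells, against 4908.9, 7053.6 and 4991.7 units in vector cells. On 92608_at they were 3658.5, 3150.9 and 3967.7 units in C/EBPα cells, against 6207.8, 8709.8 and 6983.9 units in vector cells. The C/EBPα arrays lie below all vector arrays on both. The difference was -1.01 on 160065_s_at (SE 0.17, adjusted p 5.26e-04, 2.01-fold lower) and -1.02 on 92608_at (SE 0.18, adjusted p 6.65e-04, 2.02-fold lower). The 2 probe sets had a correlation of 0.960 over the 15 arrays, a description of arrays that share their RNA.

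In C/EBPβ cells, Csrp1 had 2828.6, 3632.9 and 3800.9 units on 160065_s_at and 3620.1, 4866.5 and 4732.0 units on 92608_at. In C/EBPε cells it had 3182.1, 4051.8 and 3479.0 units on 160065_s_at, and 3857.7, 4721.9 and 3480.3 units on 92608_at. All of these arrays lie below the vector arrays. On 160065_s_at the difference was -0.72 in C/EBPβ cells (adjusted p 0.0128) and -0.65 in C/EBPε cells (adjusted p 0.0145). On 92608_at it was -0.73 in C/EBPβ cells (adjusted p 0.0145) and -0.86 in C/EBPε cells (adjusted p 0.00289). Several of these calls were lost without a single array. For C/EBPβ that on 160065_s_at was lost without vector replicate 2 (adjusted p 0.0541), without C/EBPβ replicate 1 (0.0634), without the arrays numbered 1 (0.0602) or in a fit to these 2 groups alone (0.0514). That on 92608_at was lost without vector replicate 2 (0.0578), C/EBPβ replicate 1 (0.0691) or the arrays numbered 1 (0.0596). In C/EBPε cells 160065_s_at was lost without vector replicate 2 (0.0629), without C/EBPε replicate 1 (0.0523) or in a fit to these 2 groups alone (0.0521), while 92608_at kept its call in every alternative run. C/EBPδ cells had 4088.4, 5522.2 and 5238.0 units on 160065_s_at, a difference of -0.18 (interval -0.54 to 0.18) that was not called. On 92608_at they had 4971.9, 6788.9 and 6565.1 units, a difference of -0.26 (interval -0.63 to 0.11) that was not called. These arrays overlap vector on both probe sets.

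**Figure D2:**
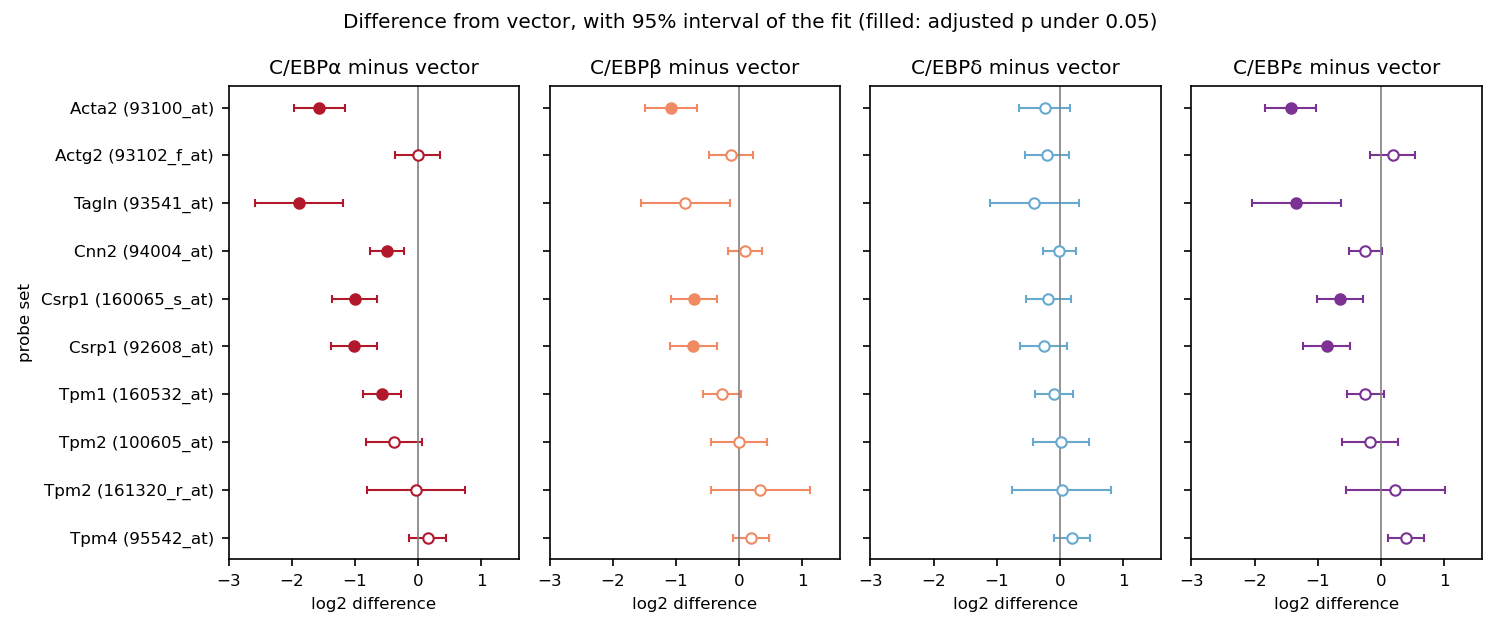
Log2 difference from vector with its 95% interval for each tested member probe set, in C/EBPα, C/EBPβ, C/EBPδ and C/EBPε cells. Filled points passed an adjusted p of 0.05, and for Acta2 they are the C/EBPα, C/EBPβ and C/EBPε points.

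Calponins bind actin and restrain the myosin ATPase. Cnn2, the form found in many non-muscle cells, is read by 94004_at on chromosome 10 (79988600 to 79995400, GRCm38.p6). Its promoter at chr10:79988350-79988649, plus strand, holds the only exact CArG box among the 8, 56 bases before the start and in capitals.
Cnn2: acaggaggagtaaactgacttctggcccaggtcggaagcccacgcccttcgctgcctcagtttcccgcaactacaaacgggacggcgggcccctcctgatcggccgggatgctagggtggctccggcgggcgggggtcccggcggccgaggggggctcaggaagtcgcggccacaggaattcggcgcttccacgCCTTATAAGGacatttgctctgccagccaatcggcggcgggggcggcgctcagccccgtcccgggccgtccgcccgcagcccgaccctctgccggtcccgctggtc
Cnn2 had 8312.7, 7009.1 and 7944.9 units in C/EBPα cells, against 11340.2, 11396.3 and 10027.9 units in vector cells. The groups do not overlap. The difference was -0.50 (SE 0.12, adjusted p 0.0119, 1.41-fold lower), and it lost its call without C/EBPα replicate 2 (adjusted p 0.0622) and without the arrays numbered 1 (0.0741). C/EBPβ cells had 10560.2, 11053.5 and 13580.2 units, a difference of 0.10 that was not called. The C/EBPδ arrays had 10764.2, 10546.7 and 11128.6 units (-0.01, adjusted p 0.996) and overlap vector. For C/EBPε cells the values were 9798.4, 9587.0 and 8272.9 units, all below vector, with a difference of -0.25 (interval -0.51 to 0.02, adjusted p 0.203). Cnn2 is the only member called between C/EBPβ and C/EBPα cells, higher in C/EBPβ by 0.59 (adjusted p 0.0115), against 2.86% of all probe sets called in either direction. That call was lost without C/EBPα replicate 2 (0.0785) or C/EBPβ replicate 3 (0.0897).

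Cnn1, the calponin of differentiated smooth muscle, is read by 99942_s_at (chromosome 9, 22099221 to 22109221, GRCm38.p6) and stayed under the filter, above 1092.06 units on 1 of 15 arrays. Its signals were 552.2, 524.9 and 1174.0 units in C/EBPα cells, against 756.1, 488.1 and 735.6 units in vector cells. The C/EBPβ arrays had 794.9, 331.8 and 1009.0 units, in C/EBPδ cells 361.3, 501.5 and 916.0 units, and in C/EBPε cells 458.9, 609.3 and 105.2 units. All groups overlap, and 1 C/EBPε array lies under the floor. When all probe sets were fitted without the filter, none of its 4 differences from vector was called.

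Tropomyosins are coiled-coil dimers that lie along the actin filament and gate its access to myosin. Tpm1, read by 160532_at (chromosome 9, 67022590 to 67049672, GRCm38.p6), had 9184.3, 9999.1 and 10716.5 units in C/EBPα cells, against 14832.5, 15664.0 and 13969.9 units in vector cells. The groups do not overlap, and the difference was -0.57 (SE 0.14, adjusted p 0.0104, 1.49-fold lower). Without the arrays numbered 1 its adjusted p was 0.0715. Tpm1 in C/EBPβ cells had 9877.6, 13400.2 and 13965.8 units (-0.27, adjusted p 0.272) and in C/EBPε cells 12180.9, 13712.6 and 11701.2 units (-0.24, adjusted p 0.273). The C/EBPδ arrays had 13556.9, 15793.6 and 12337.7 units (-0.10, adjusted p 0.993) and overlap vector, while the C/EBPβ and C/EBPε arrays all lie below vector.

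Tpm2, the beta-tropomyosin of smooth and skeletal muscle (chromosome 4, 43513726 to 43523583, GRCm38.p6), has 2 probe sets whose group means ran in different orders. On 100605_at the C/EBPα arrays had 1331.7, 1625.0 and 1302.2 units, against 1868.9, 2498.8 and 1324.3 units in vector cells. The vector arrays spread more widely than the arrays of the other groups together, and the difference of -0.38 (interval -0.82 to 0.07, adjusted p 0.286) was not called. The suffix of 161320_r_at marks a probe set designed under relaxed rules, and its group means ran between 846 ± 196 units in C/EBPα cells and 1084 ± 202 units in C/EBPβ cells, against 911 ± 370 units in vector cells (SD, n = 3 each).

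Tpm4, a short tropomyosin of stress fibres in non-muscle cells, is read by 95542_at (chromosome 8, 72135288 to 72153142, GRCm38.p6). It had 32551.7, 38752.4 and 31858.0 units in C/EBPε cells, against 24375.6, 32064.4 and 22602.5 units in vector cells. The lowest mean of the 5 groups was that of vector, and the C/EBPε and vector arrays overlap on vector replicate 2. The difference of 0.40 (SE 0.14, interval 0.11 to 0.69, adjusted p 0.0604) missed the threshold. It passed without vector replicate 2 (adjusted p 0.0094), and with quantile scaling (6.68e-04), no scaling (0.00943), scaling by the median log2 ratio (0.0359) or array weights (0.0107), and with the replicate number as a block (0.00733). In the other C/EBP groups the difference lay between 0.15 and 0.19 and was not called. With quantile scaling the C/EBPα difference passed (0.0141), and with array weights the C/EBPβ difference did (0.0443).

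Actg2, the gamma-actin of enteric smooth muscle, is read by 93102_f_at (chromosome 6, 83512909 to 83536251, GRCm38.p6), whose suffix marks a probe set that can read other members of a gene family. Means were 3535 ± 504 units in C/EBPα cells, 3246 ± 331 in C/EBPβ, 3092 ± 465 in C/EBPδ and 4051 ± 596 in C/EBPε, against 3566 ± 590.5 units in vector cells (SD, n = 3 each). No group stands apart. The difference in C/EBPα cells was -0.01 (interval -0.36 to 0.35), an interval that leaves out the Acta2 difference.

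**Figure D3:**
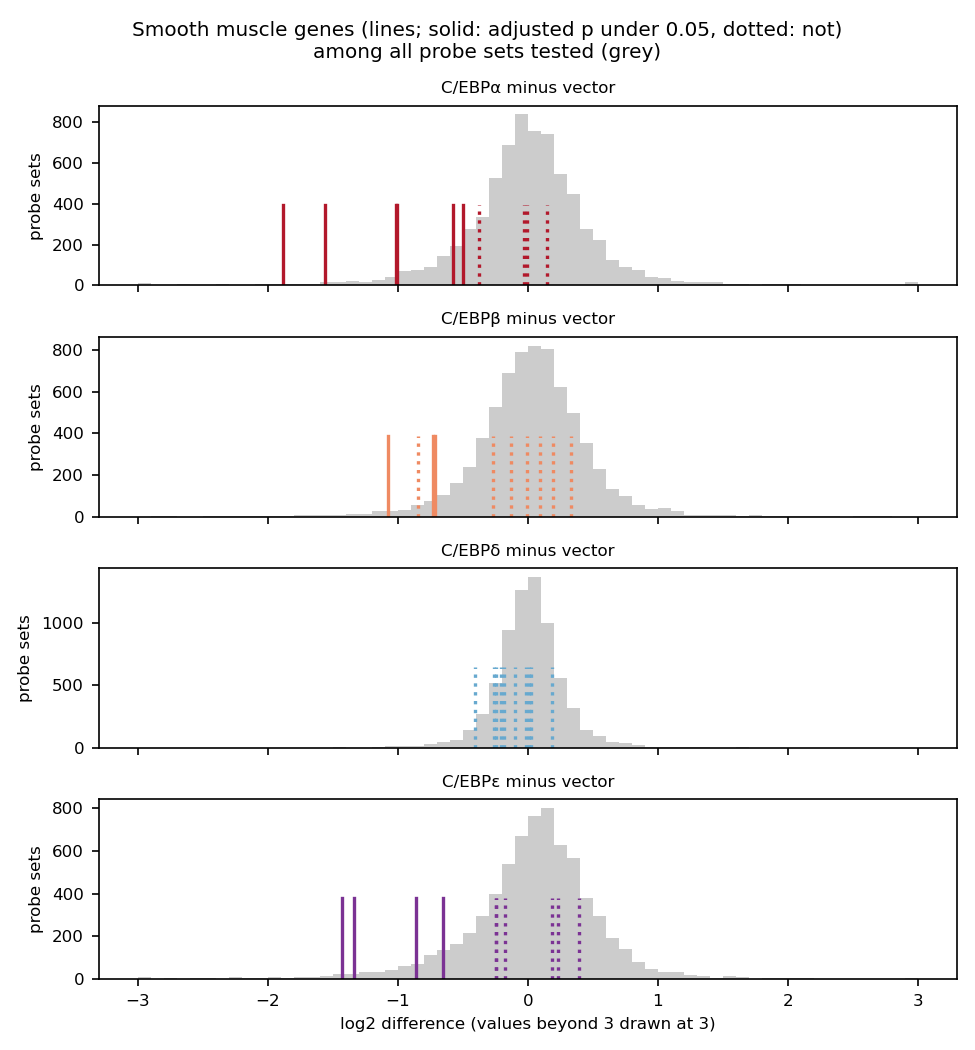
Distribution over all 6963 tested probe sets (grey) of the log2 difference of each C/EBP group from vector, with the member probe sets as lines (solid, called; dotted, not called). The member median was -0.53 in C/EBPα cells, against 0.00 over all probe sets.

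Over the 10 tested member probe sets the median difference was -0.53 in C/EBPα cells, -0.20 in C/EBPβ cells, -0.14 in C/EBPδ cells and -0.24 in C/EBPε cells. Over all 6963 probe sets it was 0.00 in C/EBPα cells, 0.04 in C/EBPβ cells, 0.01 in C/EBPδ cells and 0.08 in C/EBPε cells. Member probe sets below 0 numbered 9 in C/EBPα cells and 7 in each of the other C/EBP groups. The 5-group test found any difference for 5 member probe sets (16.5% of all), namely Acta2, Tagln, both Csrp1 probe sets and Cnn2. Among the 4 C/EBP groups the same 5 differed (10.2% of all). The adjusted p of Acta2 among the C/EBP groups was 6.12e-04. Without C/EBPδ replicate 2 that test lost Tagln (0.102) and Csrp1 (0.112 on 160065_s_at and 0.171 on 92608_at). Without C/EBPδ replicate 3 it lost the same 3 probe sets (0.0786 for Tagln, 0.105 on 160065_s_at and 0.168 on 92608_at). Without C/EBPα replicate 2 it lost Cnn2 (0.0685) and Csrp1 (0.0534 on 160065_s_at and 0.0821 on 92608_at). Tagln was also lost without C/EBPδ replicate 1 (0.0678) and without the arrays numbered 1 (0.129).

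Between C/EBP groups, most calls involved C/EBPδ cells. Against C/EBPα cells, C/EBPδ cells were higher for 6 of the 10 tested member probe sets, from 5 of 8 genes, where 8.40% of all probe sets were called in either direction. These were Acta2 and Tagln as given, Csrp1 by 0.82 on 160065_s_at (adjusted p 0.00481) and 0.76 on 92608_at (adjusted p 0.0108), Cnn2 by 0.48 (adjusted p 0.0223) and Tpm1 by 0.47 (adjusted p 0.0480). The Csrp1 92608_at call was lost without C/EBPα replicate 2 (0.0622), C/EBPδ replicate 2 (0.0592) or C/EBPδ replicate 3 (0.0559). The Cnn2 call was lost without C/EBPα replicate 2 (0.106), C/EBPα replicate 3 (0.0551) or any C/EBPδ array (0.0603, 0.056 and 0.0875), and without the arrays numbered 1 (0.0846). The Tpm1 call was lost in 11 of 15 runs that left out 1 array, with an adjusted p of up to 0.202. Against C/EBPδ cells, C/EBPε cells were lower for 2 members (8.21% called in either direction), Acta2 and Csrp1 92608_at (-0.60, adjusted p 0.0436). The Csrp1 call was lost in 7 of 15 runs with 1 array left out (up to 0.169). C/EBPδ cells against C/EBPβ cells gave 1 call, Acta2 (4.77%). C/EBPε cells against C/EBPα cells gave 0 limma calls (1.31%; 1 member at an unadjusted p below 0.05), as did C/EBPε cells against C/EBPβ cells (2.34%; 1 member at an unadjusted p below 0.05).

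Over the 15 arrays, the 6 member probe sets called lower in C/EBPα cells had pairwise correlations of log2 values between 0.588 and 0.960, with a median of 0.726 over 15 pairs. The highest is that of the 2 Csrp1 probe sets with each other. Acta2 and Tagln had 0.818. These 6 were picked for being lower in C/EBPα cells on the same arrays, which by itself favours positive correlations. Outside these 6, the correlation with Acta2 was -0.206 for Actg2, -0.329 for Tpm4 and 0.181 for Cnn1. For Tpm2 it was 0.515 on 100605_at and -0.273 on 161320_r_at. The 15 arrays share their RNA and groups, so the values are a description. The 5 genes with the highest correlation to Acta2 were Nfkbib (0.978), Dnajb2 (0.973), Zfand2a (0.973), Wwc1 (0.971) and Procr (0.971). For Tagln they were Cramp1l (0.927), Shroom3 (0.916), Smim14 (0.913), Mdm2 (0.907) and Fbxw7 (0.899). Dnajb2, a co-chaperone, averaged 2371 units in C/EBPα cells against 11869 units in vector cells. Mdm2, the ubiquitin ligase of p53, averaged 5324 units in C/EBPα cells against 14640 units in vector cells.

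Other genes of the contractile apparatus were read from a list of 28, of which 22 are named on the array and 14 were tested. In C/EBPα cells 3 were called lower (6 or 7 under the other scalings) and 0 higher, where 7.15% of all tested probe sets were lower. Under the other scalings 578 to 609 of all tested probe sets were called lower, against 498 as reported. The median difference over the 14 was -0.36, against 0.00 over all. Csrp2, a LIM protein related to Csrp1, was lower in C/EBPα cells by 0.97 (-0.97, SE 0.20, adjusted p 0.00241). Itga5, the fibronectin receptor subunit, was lower by 0.81 (-0.81, adjusted p 0.0307), a call lost without vector replicate 2 or 3 or without any C/EBPα array (0.0569 to 0.118), without the arrays numbered 1 (0.0615) and with no filter (0.0724). In C/EBPβ and C/EBPδ cells limma called 0 of the 14. In C/EBPε cells 1 was called, Mylk, the myosin light chain kinase, higher by 0.80 (adjusted p 0.0136), lost without C/EBPε replicate 3 (0.0693). Cnn3, the third calponin, was -0.41 in C/EBPα cells (adjusted p 0.0513) and passed with quantile scaling (0.0216), no scaling (0.0111), the median log2 ratio (0.0189), the replicate number as a block (0.0159), the floor at the 40th percentile (0.0488) and a filter on at least 10 arrays (0.0486). It also passed without C/EBPδ replicate 1 (0.0347) or C/EBPδ replicate 2 (0.0482). The cytoplasmic actin Actg1 (-0.08) and Tpm3 (-0.03) were not called in C/EBPα cells.

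The defining genes of mature smooth muscle named on the array, Myh11, Smtn, Des and Myl9, stayed under the filter. Myh11, the smooth muscle myosin heavy chain, averaged 585 units in C/EBPα cells and 637 units in vector cells. Smtn (smoothelin) averaged 236 units in C/EBPα cells against 456 units in vector cells, and Des (desmin) 198 against 208 units. Myl9, the regulatory light chain, lay at the floor on 2 of 3 C/EBPα arrays and on all 3 vector arrays. Of the 12 listed markers of mature smooth muscle and pericytes 7 are named on the array, and only Pdgfrb was tested, higher in C/EBPβ cells by 1.02 (adjusted p 0.031), a call lost without vector replicate 2 or 3 or C/EBPβ replicate 2 or 3 (0.0537 to 0.152), with no filter (0.0654) and in a fit to these 2 groups alone (0.0624). The summed signal of these 7 was 2506 to 3134 units in C/EBPα cells and 2449 to 2979 units in C/EBPε cells, against 2590 to 2763 units in vector cells. In C/EBPβ cells it was 2474 to 4443 units. In C/EBPδ cells it was 2065 to 2190 units, below every vector array. Srf, Myocd and Cald1 were not analysed here.

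**Figure D4:**
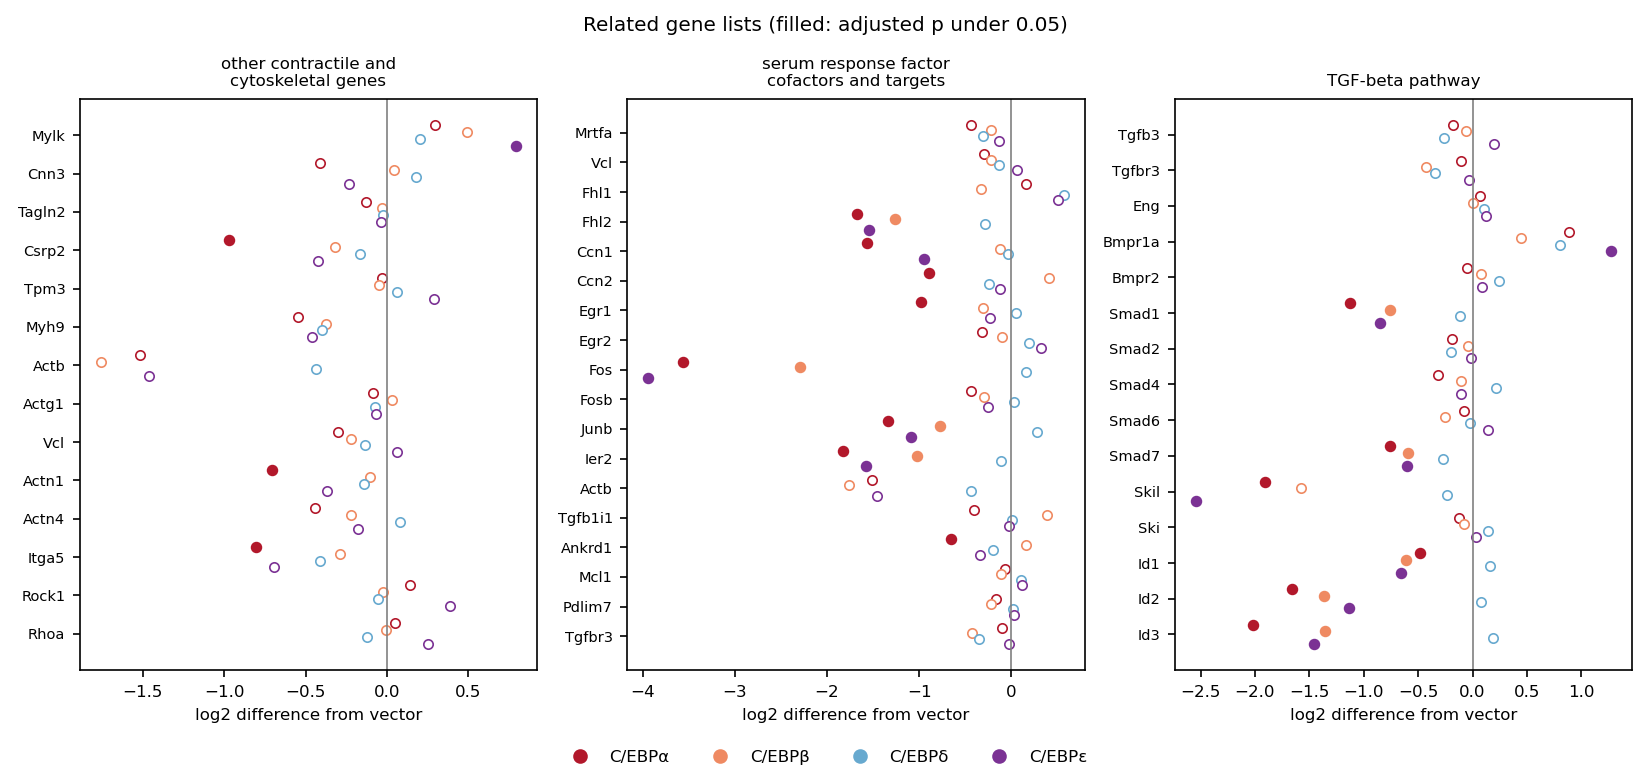
Log2 difference from vector of the tested genes of 3 lists, other contractile genes, serum response factor genes and TGF-beta genes, in each C/EBP group. Each point is 1 gene, filled where called, and a few genes stand on more than 1 list. Among the serum response factor genes 8 of 18 were called lower in C/EBPα cells and 0 in C/EBPδ cells.

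Genes known as targets or cofactors of serum response factor were read from a list of 25 outside the members, with 18 tested. In C/EBPα cells 8 were called lower (7.15% of all tested probe sets were so), in C/EBPβ cells 4 (4.18%) and in C/EBPε cells 5 (6.91%), and none was called higher. In C/EBPδ cells limma called 0 of the list lower, as it did over all probe sets (0.00%). Their median difference was -0.55 in C/EBPα cells, -0.26 in C/EBPβ cells, -0.02 in C/EBPδ cells and -0.18 in C/EBPε cells. Fos, an immediate early gene with a CArG element in mouse and human, was -3.56 in C/EBPα cells (SE 0.21, adjusted p 8.06e-09), -2.30 in C/EBPβ cells (adjusted p 5.87e-06) and -3.94 in C/EBPε cells (adjusted p 2.68e-09). Fhl2, a LIM protein that binds serum response factor, was -1.68 in C/EBPα cells (adjusted p 4.67e-08), -1.26 in C/EBPβ cells and -1.54 in C/EBPε cells. Ier2 was -1.82 in C/EBPα cells and -1.58 in C/EBPε cells. In C/EBPδ cells Fos was 0.16, Fhl2 -0.29 and Ier2 -0.12, and none of the 3 was called.

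TGF-beta ligands, receptors, Smads and targets were read from a list of 25, with 15 tested. In C/EBPα cells 6 were called lower (7.15% of all tested probe sets were so), in C/EBPβ cells 5 (4.18%) and in C/EBPε cells 6 (6.91%). The median difference over the 15 was -0.19 in C/EBPα cells, -0.25 in C/EBPβ cells, 0.07 in C/EBPδ cells and -0.03 in C/EBPε cells. In C/EBPδ cells limma called 0 of the list lower, as it did over all probe sets (0.00%). The only gene of this list called higher was Bmpr1a in C/EBPε cells (1.27, adjusted p 0.00745). Id3, a helix-loop-helix inhibitor raised by BMP signalling, was -2.02 in C/EBPα cells (adjusted p 4.02e-06), -1.36 in C/EBPβ cells and -1.45 in C/EBPε cells. Id2, of the same family, was -1.66 in C/EBPα cells, -1.37 in C/EBPβ cells and -1.13 in C/EBPε cells. Skil, a Smad corepressor, was -1.91 in C/EBPα cells (adjusted p 0.0331) and -2.55 in C/EBPε cells (adjusted p 0.00567), with 1 array at the floor in each of these groups. With the floor at the 40th percentile these sizes were -0.87 in C/EBPα cells and -0.98 in C/EBPε cells. The C/EBPα call for Skil was lost without any vector array or without C/EBPα replicate 1 or 2 (0.0696 to 0.133) and with no filter (0.0586), and without the arrays numbered 1 both its calls were lost (0.297 and 0.0644).

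Some markers of other cell types differed between the groups. The 8 adipocyte markers on the array summed to 16626 to 20896 units in C/EBPα cells, 6009 to 6418 in C/EBPβ, 6700 to 7170 in C/EBPδ and 7207 to 8523 in C/EBPε, against 5427 to 5929 units in vector cells. Only 3 of the 8 were tested, and 2 were called higher in C/EBPα cells, Lpl and Pparg. The signals of 5 of the 8 stayed under the filter on every C/EBPα array, so the sum does not speak for the whole list. Lpl, lipoprotein lipase, was called higher in all 4 C/EBP groups and averaged 9839 ± 1560 units in C/EBPα cells, against 254 ± 33.4 units in vector cells (SD, n = 3 each). These vector signals lie close to the floor, and with the floor at the 40th percentile the Lpl difference in C/EBPα cells was 3.86 in place of 5.27. The same floor ended its calls in C/EBPβ cells (0.39, adjusted p 0.252) and C/EBPε cells (0.59, adjusted p 0.0554), and a fit to these 2 groups alone ended that in C/EBPβ cells (0.0509). Pparg, the receptor that drives adipocyte differentiation, averaged 2983 ± 324 units in C/EBPα cells (SD, n = 3) and lay at the floor on all 3 vector arrays. It was called higher in C/EBPα cells (adjusted p 1.88e-04), but not when the floor was left out (0.0619). The 12 fibroblast markers summed to 98975 to 127215 units in C/EBPα cells, 140006 to 196663 in C/EBPβ, 109934 to 115693 in C/EBPδ and 134136 to 179881 in C/EBPε, against 109856 to 145587 units in vector cells. Of the 10 tested, 2 were called higher and 1 lower (Thy1, -0.66, adjusted p 0.0123) in C/EBPα cells, with a median difference of -0.09. Called higher were 4 in C/EBPβ cells, 2 in C/EBPε cells and 0 in C/EBPδ cells, and none was called lower in these 3 groups. Of all 6963 tested probe sets, limma called higher 499 in C/EBPα, 357 in C/EBPβ, 653 in C/EBPε and 25 in C/EBPδ cells. Dcn, the matrix proteoglycan decorin, was higher by 1.97 in C/EBPα cells, by 1.63 in C/EBPβ cells and by 3.29 in C/EBPε cells. Dcn was not called in C/EBPδ cells. It passed there with quantile scaling (0.76, adjusted p 0.00163), no scaling (0.79, adjusted p 0.00444) and array weights (0.81, adjusted p 0.0031), among other runs. Postn, the matrix protein periostin, was higher by 1.06 in C/EBPα cells (adjusted p 0.00173; 0.0521 without the arrays numbered 1) and was also called higher in C/EBPβ cells. Col3a1, a fibrillar collagen chain, was higher by 1.13 in C/EBPε cells (adjusted p 0.00116). The 19 markers of skeletal and cardiac muscle on the array summed to 17112 to 18891 units in C/EBPα cells, against 16883 to 19050 units in vector cells, and limma called 0 of the 10 tested in C/EBPα cells. Myl4, a myosin light chain, was lower by 1.08 in C/EBPβ cells (-1.08, adjusted p 0.0432) and by 0.96 in C/EBPε cells (-0.96, adjusted p 0.0497), calls lost in 10 (C/EBPβ) and 14 (C/EBPε) of 15 runs with 1 array left out. Of the 12 markers of endothelium, epithelium and leukocytes on the array, 4 were tested. They summed to 10911 to 14745 units over all 12 in C/EBPα cells, against 14710 to 17662 units in vector cells. Only Cd68, a macrophage marker, was called. It was lower in C/EBPα cells by 2.02 (-2.02, adjusted p 8.79e-08) and was also called lower in C/EBPβ and C/EBPε cells. The part of these markers in the members' results was not tested.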

How the data were processed

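RNA of 15 zinc-treated NIH 3T3 cultures was hybridised to Affymetrix MG_74Av2 arrays. Per the labels, the authors derived 1 intensity for each probe set on a linear scale using Microarray Suite 5. Their 2% trimmed mean lay between 2501.12 and 2501.39 units on every array, so they had been scaled. The members and lists were chosen with earlier results of these data known. Of 12488 probe sets, 66 controls were removed. Each array was divided by its median and rescaled to the average median, the floor of 189.652 units and the filter of 1092.06 units on at least 3 arrays were set, and log2 was taken. limma 3.58.1 (R 4.3.3) fitted group means to all 15 arrays with a trended prior, with Benjamini-Hochberg adjustment across 6963 probe sets. Precision is limited by how many arrays there are. Of 12422 probe sets 10833 name 1 gene, 396 several and 1193 none, by the platform annotation. For a list gene with several probe sets, the brightest tested one was used. Named were every member, up to 2 called genes with the largest difference per list and contrast, 12 contractile genes fixed by symbol wherever measured, and the 5 genes most correlated with Acta2 and with Tagln. Bmpr1a and Thy1 were named after their values were seen. Promoters came from RefSeq's table for GRCm38.p6, and the relaxed CArG search was added after the data were seen. On simulated arrays for the C/EBPα against vector comparison (6963 probe sets, 200 changed) limma called 28% of those changed 1.5-fold, 76.5% at 2-fold and 90.5% at 3-fold. The changed probe sets were drawn only from those well above the floor, with noise independent between arrays. In the data some signals lie nearer the floor and same-numbered arrays deviated together, so these rates need not hold for the members. Alternatives changed the scaling, floor, filter, prior, weights, replicate block, arrays and groups in the fit.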

Additional observations from a re-analysis of the deposited data

How the results depend on the processing

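The count of member probe sets called against vector ran from 4 to 7 in C/EBPα cells over the alternatives other than leaving out 1 array (6 as reported), and from 3 to 5 in C/EBPε cells (4 as reported). Calls over all tested probe sets also moved. In C/EBPα cells they were 997 as reported, 1276 with quantile scaling (7 members) and 642 without the 5 arrays numbered 1 (4 members). In C/EBPδ cells the member count was 0 in every setting. In C/EBPβ cells (3 as reported) the member count was 5 with array weights and 1 without the 5 arrays numbered 1, and leaving out 1 array gave 1 to 4. Over all tested probe sets, calls in C/EBPβ cells were 648 as reported, 1576 with array weights and 348 without those arrays. Leaving out 1 array gave 5 to 6 in C/EBPα cells and 3 to 4 in C/EBPε cells. Among the 4 C/EBP groups (5 as reported) the member count was 2 without the filter, 3 without the arrays numbered 1, 2 by a univariate F-test, and 2 to 5 with 1 array left out. Over all tested probe sets that test called 709 as reported, 630 of 12422 without the filter and 405 without the arrays numbered 1. The univariate F-test called 534. Calls lost are given in part in the report beside the gene, and the cause was not tested, except that a fit without arrays holds fewer samples. No result reversed its direction while called. A tally took the member differences from vector, the tests of any difference, and those pairs of C/EBP groups that were called as reported. Such a pair could lose a call but not gain one, so gains and losses cannot be set against each other. These results kept their side of the threshold in 779 of the alternatives' values, gained a call in 16 and lost a call in 26. With 1 array left out the counts were 992, 3 and 55. Same-numbered arrays deviated together with a correlation over 0.1 in 10 of 10 pairs for number 1, 8 of 10 for number 2 and 2 of 10 for number 3. Among pairs with different numbers, 3 of 60 did so. Arrays numbered 1 or 2 thus deviated together across groups, and those numbered 3 hardly did. The reported fit takes no account of the number. When the replicate number entered as a block, member probe sets called were 6 in C/EBPα, 3 in C/EBPβ, 0 in C/EBPδ and 5 in C/EBPε cells, where Tpm4 was the added call (adjusted p 0.00733), and 13 of 15 arrays were closest to their own number, a hint from the data only. With the block, calls over all tested probe sets rose as well, in C/EBPε cells from 1134 to 1676. Of the other contractile genes 3 were called lower in C/EBPα cells as reported, against 6 with quantile scaling, 7 with no scaling or the median log2 ratio and 8 with the block. Lower calls over all tested probe sets were 498 as reported. They were 609 with quantile scaling, 589 with no scaling, 578 with the median log2 ratio and 720 with the block. Of these genes, 0 were called lower in C/EBPε cells as reported, against 3 with quantile scaling or no scaling, 2 with the median log2 ratio, 1 with array weights and 4 with the block, and in C/EBPβ cells 0 as reported, against 1 with array weights and 2 with the block. Over all tested probe sets, lower calls in C/EBPε cells were 481 as reported and 604 to 683 in those settings. In C/EBPβ cells they were 291 as reported, 573 with array weights and 458 with the block. The serum response factor list in C/EBPβ cells had 4 as reported and 2 without C/EBPβ replicate 1, and the TGF-beta list had 5 as reported and 3 without the arrays numbered 1. Lower calls over all tested probe sets were then 182 and 165. Signals near the floor, as for Cnn1, limit what can be read.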

Other observations

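The cytoplasmic actin Actb varied by replicate number far more than by group on probe set 101578_f_at. The suffix marks a probe set that can read other members of a gene family. Its signals were 557.6, 10132.9 and 3714.2 units on C/EBPα replicates 1, 2 and 3, against 1849.7, 28713.7 and 9230.3 units on vector replicates 1, 2 and 3. The difference on this probe set was -1.52 in C/EBPα cells (SE 1.43, limma adjusted p 0.572) and was called with the replicate number as a block (adjusted p 4.28e-04). A second Actb probe set, 95705_s_at, gave another pattern over the replicates. It had 463.8, 2823.1 and 3230.7 units on C/EBPα replicates 1, 2 and 3, against 1341.7, 4638.7 and 5629.4 units on vector replicates 1, 2 and 3.

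The probe set that names both Tpm4 and Gm7809 had 6526.4, 7520.9 and 8315.8 units in C/EBPε cells, against 5170.3, 3997.1 and 5587.0 units in vector cells. C/EBPβ cells had 5858.5, 7454.5 and 6521.1 units. Both groups lie above vector on every array. C/EBPα cells, with 5370.2, 6313.3 and 9148.7 units, and C/EBPδ cells, with 5427.1, 5293.7 and 6608.6 units, overlap vector. The highest array of all was C/EBPα replicate 3.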
